A study of Mus musculus with 3 samples.

Results

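The genes of the MYC, MAX and MXD network were examined in RNA-seq of melan-a cells, an immortalized line of mouse melanocytes. The 10 members, of 22698 genes in all, were chosen by symbol from knowledge of the network and not by a cut on their values. Earlier results of these data were known when the choice was made. The members were the activators *Myc* and *Mycn*, the common partner *Max*, the antagonists *Mxd1*, *Mxd3*, *Mxd4*, *Mxi1*, *Mnt* and *Mga*, and *Mlx*, the partner at the centre of a parallel network. The series holds 1 group of 3 replicates, labelled 1, 3 and 4, which the submitters call biological replicates without saying how they were separated. All were given as C57BL/6J melanocytes from Ink4a-ARF-/- mice, received no treatment, and grew with 10% serum, 200 nM of the phorbol ester TPA and 200 pM cholera toxin. There was no second condition and no control, and the age of the donor animals was not given in the labels. Comparisons were therefore made between genes within a replicate.

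MYC proteins are basic helix-loop-helix leucine zipper factors that bind DNA only as a dimer with MAX, mostly at the E-box CACGTG, and raise transcription of genes for ribosome assembly, metabolism and cell cycle entry. MXD proteins, MNT and MGA pair with the same MAX and occupy the same letters, but MXD and MNT recruit the SIN3 histone deacetylase complex and lower transcription. MLX pairs with the glucose-responsive factors MLXIP and MLXIPL and also with some of the antagonists. In pigment cells the E-box is also the site of MITF, the central regulator of melanocyte differentiation.

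Levels are FPKM, read counts scaled by gene length and library size, so that genes can be compared per length. The scaled library sizes, recovered from genes whose low values must be whole reads, were about 53900000, 47100000 and 66300000 reads in replicates 1, 3 and 4. Melanocyte markers were present, with 7 of 8 at 1 FPKM or more and *Kit*, the stem cell factor receptor, the exception at 0.67, 0.59 and 0.78 FPKM. Summed markers of keratinocytes, endothelial cells and leukocytes reached at most 0.7, 0.03 and 0.01 FPKM in any replicate, and those of fibroblasts 1.56 to 1.91, mostly *Col1a1*. *Cdkn2a*, the gene of p16INK4a and p19ARF, stood at 19.24, 16.49 and 24.32 FPKM, although the labels give the locus as lost. A value for the whole gene does not tell which of its exons carried the reads, so the deletion could not be checked. The replicates also differed along GC content, as described below for the members.

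Of the 10 members, 9 were at 1 FPKM or more in every replicate, against 44.1% of all genes, and 6 were at 10 FPKM or more, against 21.7%. The exception was *Mycn*. At a threshold of 0.1 FPKM all 10 members were included, against 52.3% of all genes. *Mxd4* had the highest level of the network, followed by *Max*, *Myc*, *Mxd3*, *Mlx*, *Mnt*, *Mxd1*, *Mxi1*, *Mga* and *Mycn*. The median of the 10 mean levels was 14.6 FPKM, against 0.28 over all genes and 11.2 over the genes that were at 1 FPKM or more in each replicate. Of the 9 pairs of neighbours in the order, 7 had ranges that did not overlap over the replicates. The ranges of *Mxd1* and *Mxi1* overlapped, as did those of *Mxi1* and *Mga*, so the order of these 3 genes was not resolved.

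**Figure D1:**
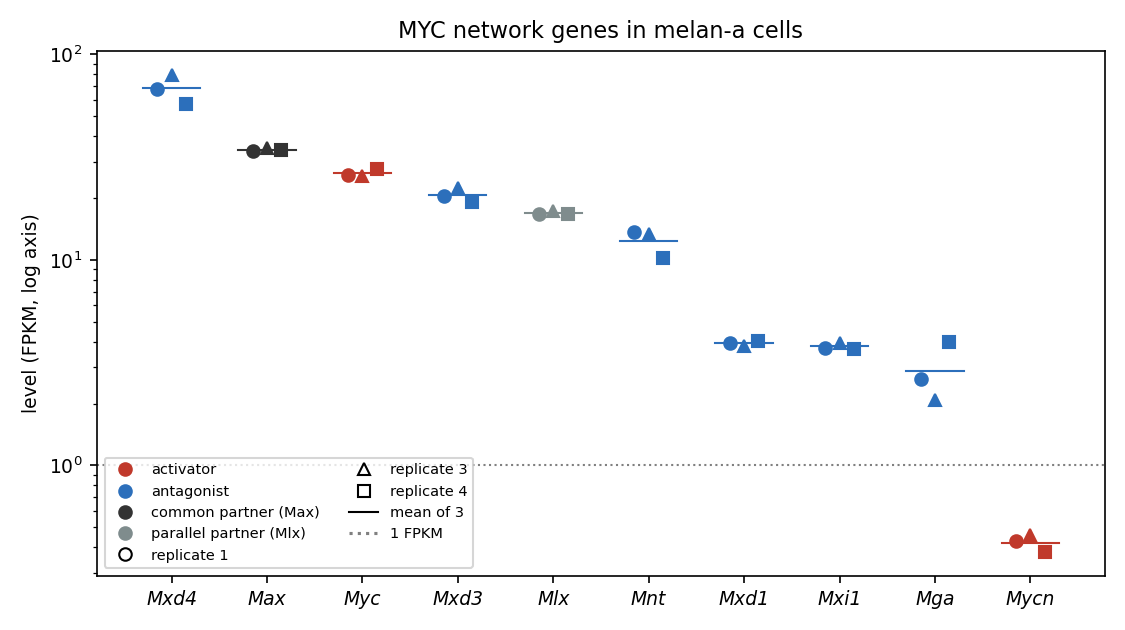
Level of each network gene in FPKM (log axis) in replicates 1, 3 and 4 (symbols), with the mean of 3 as a line and colours for the role of the gene. *Mxd4* lies above all other members in each replicate, *Mycn* is the member below 1 FPKM, and *Mga* has the widest spread, from 2.07 to 3.97 FPKM.

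Because the members' proteins bind CACGTG, the regions around the starts of the members' own genes were searched for these letters, which read the same on both strands. RefSeq promoter windows of 300 bases, 250 before and 50 after the start (GRCm38.p6), were matched for 9 members, that is all but *Myc*. CACGTG occurred once each at *Mxd4*, *Max*, *Mlx* and *Mnt*, so in 4 of the 11 windows of these 9 genes, and in 7.15% of all 32851 windows. These 4 genes had mean levels of 12.4 to 68.2 FPKM. The other matched members were *Mxd3* at 20.6 FPKM and *Mxd1*, *Mxi1*, *Mga* and *Mycn* between 0.42 and 3.93 FPKM. A match gives letters only, and occupancy was not measured. The E-box is shown in capitals with 20 bases on either side, 5′ to 3′ on the strand of the gene, so that the flanks can be compared. Positions are from an exact match to NCBIM37 (mm9), the build of the authors' alignment. Distances are to the start of the RefSeq window. The gene positions printed below for the members come from another annotation, GENCODE M1. At *Mxd4*, *Mlx* and *Mnt* its start is not the RefSeq start, so distances taken from those positions differ.
Mxd4: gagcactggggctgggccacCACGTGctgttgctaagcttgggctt
Max: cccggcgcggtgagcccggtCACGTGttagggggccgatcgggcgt
Mlx: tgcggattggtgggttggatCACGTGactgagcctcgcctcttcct
Mnt: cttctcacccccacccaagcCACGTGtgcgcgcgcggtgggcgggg
The window of *Mxd4* lies at chr5:34530553-34530598 on the minus strand, and its E-box begins 219 bases before the start. The window of *Max* is chr12:78063213-78063258 on the minus strand, with an E-box that begins 3 bases before the start and runs across it. At *Mlx*, chr11:100948544-100948589 on the plus strand, the E-box begins 40 bases before the start. At *Mnt*, chr11:74644283-74644328 on the plus strand, the distance is 123 bases.

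The 250 bases before the RefSeq start of *Mxd4* are shown whole, since this gene carried most of the antagonist RNA. They span chr5:34530360-34530609 of NCBIM37 on the minus strand. Their lower end lies inside the gene position printed below for *Mxd4*, which ends at 34530369.
Mxd4 upstream: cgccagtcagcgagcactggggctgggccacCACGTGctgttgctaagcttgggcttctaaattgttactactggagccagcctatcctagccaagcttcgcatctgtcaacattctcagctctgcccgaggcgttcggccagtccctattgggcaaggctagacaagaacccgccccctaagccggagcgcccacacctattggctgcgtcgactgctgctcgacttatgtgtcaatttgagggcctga

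*Myc* (ENSMUSG00000022346, chromosome 15, 61816946 to 61821929, plus strand) was the activator present at a substantial level. Its values were 25.94, 25.66 and 27.76 FPKM in replicates 1, 3 and 4 (26.5 ± 1.1, mean ± SD, n = 3), which ranked it 2560 among the 22698 genes. The replicates lay close together, with a coefficient of variation of 4.31%. About 3799, 3284 and 5001 reads stood behind these values, for which counting alone gives 1.6%. *Mycn* (ENSMUSG00000037169, chromosome 12, 12942902 to 12948720, minus strand), the paralog best known from neural crest tumours, had 0.43, 0.46 and 0.38 FPKM. It rested on about 76, 71 and 83 reads, above a floor of 0.019 FPKM, the value of 3 reads in replicate 3. It was thus measurable in each replicate, and made up 0.305% of the summed RNA of the partners of *Max*, where *Myc* made up 19.2%.

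Other genes with a MYC name were also examined. *Mycl1*, which encodes L-MYC, had 0.01, 0.03 and 0 FPKM, which correspond to about 2, 6 and 0 reads. *Bmyc*, a rodent paralog that lacks the DNA-binding part of MYC, had 36.3, 41.22 and 34.71 FPKM and exceeded *Myc* in 3 of 3 replicates. The log2 ratio of *Bmyc* to *Myc* was 0.50 ± 0.18 (SD, n = 3). *Bmyc* has a single exon of 839 bases, of which 477 are overlapped by a gene on the opposite strand, and whether the counting used strand is not given in the sources used here.

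*Max* (ENSMUSG00000059436, chromosome 12, 78038256 to 78063235, minus strand), the obligate partner of the network, had 33.64, 34.96 and 34.13 FPKM. Its coefficient of variation of 1.95% was close to the 1.6% of counting alone. *Max* exceeded *Myc* in 3 of 3 replicates, by log2 0.37, 0.45 and 0.30. It was below *Mxd4* in 3 of 3, with log2 ratios of -1.01, -1.19 and -0.75. All RNA of the 8 genes whose products compete for MAX summed to 138.5, 151.1 and 126.6 FPKM. The log2 ratio of *Max* to this sum was -2.01 ± 0.11 (SD, n = 3), so *Max* RNA stood at 0.247 times that of its summed partners. These are levels of RNA, and protein was not measured.

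The antagonists as a group carried more RNA than the activators. *Myc* and *Mycn* together had 26.4, 26.1 and 28.1 FPKM, and the 6 antagonists 112.1, 125 and 98.4 FPKM, in replicates 1, 3 and 4. The groups of values did not overlap. The log2 ratio of activators to antagonists was -2.09, -2.26 and -1.81, a mean of -2.05 ± 0.23 (SD, n = 3), and antagonist RNA was 4.14-fold that of the activators. With 3 replicates, a two-sided exact sign-flip permutation test over replicates cannot go below p = 0.25, which is the value obtained here. Without *Mxd4* the log2 ratio was -0.70 ± 0.13 (SD, n = 3), below 0 in 3 of 3 replicates. These are sums of unequal numbers of genes, 2 activators against 6 antagonists, or 5 without *Mxd4*. Gene by gene, *Myc* was above each of these 5 antagonists and below *Mxd4* in 3 of 3 replicates. The median level was 13.4 FPKM over the 2 activators and 8.16 over the 6 antagonists. The first is only the midpoint between *Myc* at 26.5 and *Mycn* at 0.42 FPKM, and neither gene is near it.

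**Figure D2:**
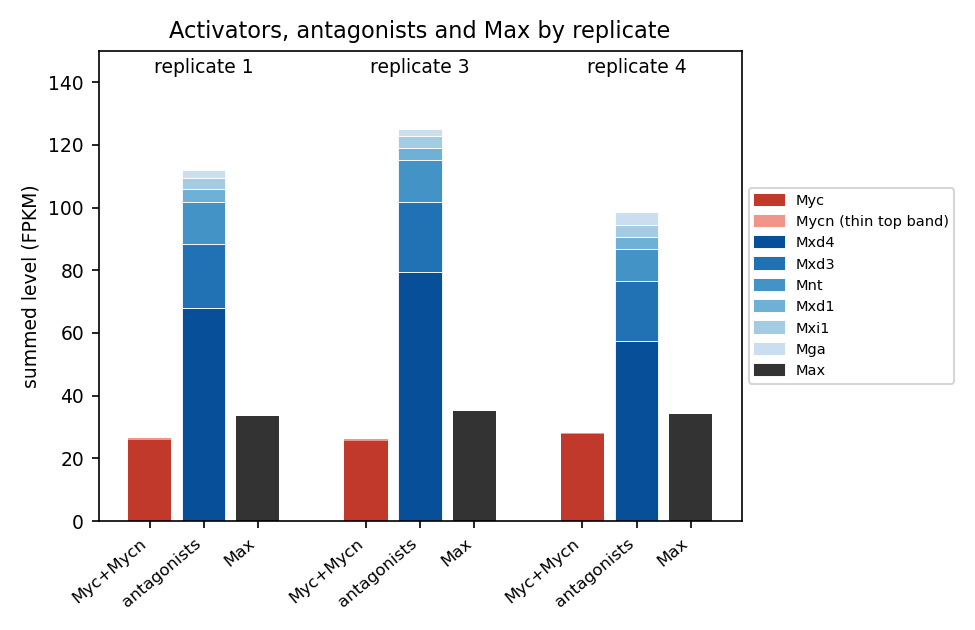
Summed level in FPKM (bars, linear axis from 0) of the activators *Myc* and *Mycn*, of the 6 antagonists and of *Max* in each replicate. The antagonist bars reach 112.1, 125 and 98.4 FPKM in replicates 1, 3 and 4, and *Mxd4* forms 60.5%, 63.7% and 58.3% of them.

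*Mxd4* (ENSMUSG00000037235, chromosome 5, 34516536 to 34530369, minus strand), a MXD gene associated with cells that leave the cycle and differentiate, had 67.84, 79.56 and 57.35 FPKM. Its mean of 68.2 ± 11 FPKM (SD, n = 3) placed it at rank 954 of all genes, and it was the member with the most reads, about 14195, 14547 and 14761. It was highest in replicate 3 and lowest in replicate 4, with a spread of 16.3% against a counting error of 0.83%. *Mxd4* exceeded *Myc* 2.56-fold, with a log2 ratio of *Myc* to *Mxd4* of -1.39, -1.63 and -1.05. It contributed 70.5 ± 2.3% (SD, n = 3) of the RNA of the MXD family.

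*Mxd3* (ENSMUSG00000021485, chromosome 13, 55426529 to 55431119, minus strand) differs from its paralogs in that it is known from S phase and from proliferating progenitors. Its values were 20.39, 22.23 and 19.13 FPKM, a mean of 20.6 ± 1.6 (SD, n = 3). It was the second antagonist by level, with 18.5% of antagonist RNA. *Myc* lay above it in 3 of 3 replicates, by log2 0.35, 0.21 and 0.54, the smallest margin between *Myc* and any antagonist that it exceeded. Genes on the opposite strand overlap 104 of the exon bases of *Mxd3*, 194 of those of *Mxi1* and 385 of the 1999 of *Mlx*, and none of those of the other 7 members. Without a stated strand setting, reads of such partners cannot be told apart from those of the 3 genes.

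*Mxd1* (ENSMUSG00000001156, chromosome 6, 86597038 to 86619153, minus strand), the founding MXD gene and a marker of terminal differentiation in several lineages, had only 3.93, 3.82 and 4.05 FPKM. *Mxi1* (ENSMUSG00000025025, chromosome 19, 53384996 to 53450300, plus strand), also called MXD2, had 3.74, 3.94 and 3.7 FPKM. Both varied by about as much as counting alone gives, 2.92% against 3.1% for *Mxd1* and 3.39% against 2.9% for *Mxi1*. *Myc* exceeded *Mxd1* 6.72-fold and *Mxi1* 6.97-fold. Together with *Mxd3* and *Mxd4* they gave the MXD family a sum of 95.9, 109.5 and 84.2 FPKM, to which *Myc* stood in a log2 ratio of -1.86 ± 0.25 (SD, n = 3).

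*Mnt* (ENSMUSG00000000282, chromosome 11, 74644422 to 74659227, plus strand), a broadly expressed antagonist, had 13.61, 13.35 and 10.23 FPKM. Replicate 4 was the low one, and the mean was 12.4 ± 1.9 FPKM (SD, n = 3). *Myc* exceeded *Mnt* by log2 0.93, 0.94 and 1.44. *Mga* (ENSMUSG00000033943, chromosome 2, 119722964 to 119795317, plus strand), which joins a T-box domain to the MAX-binding domain and is also the scaffold of the polycomb complex PRC1.6, had 2.62, 2.07 and 3.97 FPKM. It was the most variable member, with a coefficient of variation of 33.9%, while its long transcript of up to 13931 bases drew about 2166, 1496 and 4038 reads. The log2 ratio of *Myc* to *Mga* accordingly ranged from 2.81 in replicate 4 to 3.63 in replicate 3.

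*Mlx* (ENSMUSG00000017801, chromosome 11, 100948591 to 100953521, plus strand) had 16.67, 17.2 and 16.72 FPKM and the smallest coefficient of variation of the members, 1.74%. *Max* exceeded it by log2 1.01, 1.02 and 1.03, the steadiest of the ratios computed. Of its partners, *Mlxip*, which encodes MondoA, had 12.59, 12.63 and 11.05 FPKM. *Mlxipl*, which encodes ChREBP, had 0, 0.01 and 0.02 FPKM, which correspond to about 0, 3 and 7 reads. *Mlx* exceeded the sum of both by log2 0.48 ± 0.10 (SD, n = 3). The antagonists known to pair with MLX as well, *Mxd1*, *Mxd4* and *Mnt*, summed to 85.4, 96.7 and 71.6 FPKM, 4.98-fold the level of *Mlx*.

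**Figure D3:**
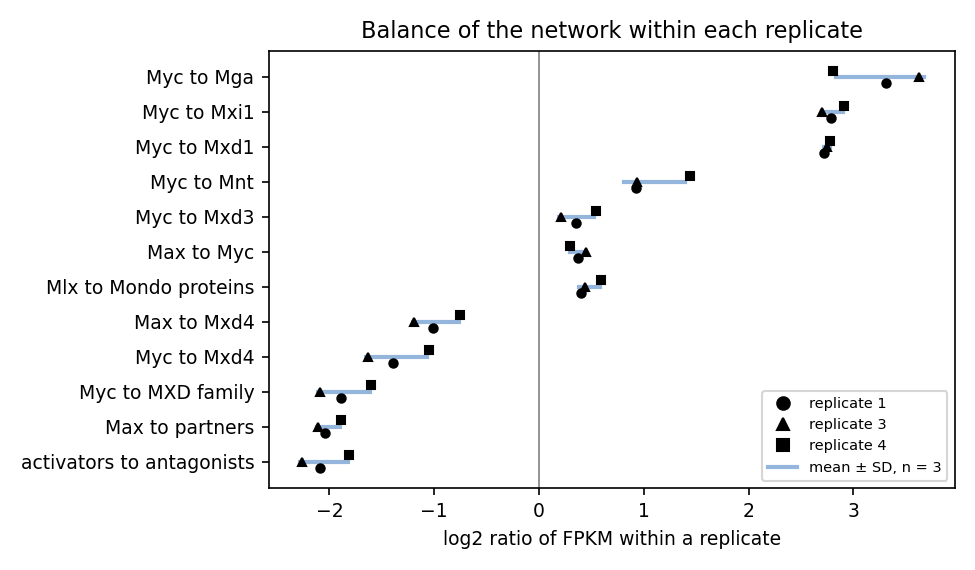
Log2 ratio of FPKM within each replicate (symbols; values above 0 mean that the first named gene or sum is higher), with the mean ± SD over 3 replicates as a bar. *Myc* lies above *Mga*, *Mxi1*, *Mxd1*, *Mnt* and *Mxd3* and below *Mxd4* in each replicate, and activators to antagonists lie between -2.26 and -1.81.

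Across genes, the difference between replicates 3 and 4 went along with the GC content of the transcript. Over 10006 genes at 1 FPKM or more, Spearman's rho between GC content and the log2 ratio of replicate 3 to replicate 4 was 0.78, given as a description since genes of the same libraries are not independent. *Mga*, with the lowest GC content of the members at 42.2%, had a log2 ratio of -0.94. *Mnt*, with the highest at 59.5%, had 0.38, and *Mxd4*, at 55.6%, had 0.47. *Max*, *Mlx* and *Mxd1*, at 50.1% to 50.6%, had ratios between -0.08 and 0.04. *Mycn*, at 54.8%, had 0.28, and *Mxd3*, at 57%, had 0.22. *Myc* lay below the trend with -0.11 at 53.3%, and *Mxi1* lay above it with 0.09 at 46.4%. *Mga* also lay below the trend. With the trend removed, the log2 ratio was -0.43 for *Mga*, -0.3 for *Myc* and 0.33 for *Mxi1*, the largest departures among the members.

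When the trend was removed from each replicate, the coefficient of variation fell from 33.9% to 16.6% for *Mga*, from 16.3% to 6.07% for *Mxd4*, from 15.2% to 7.22% for *Mnt* and from 7.57% to 5.79% for *Mxd3*. It rose from 4.31% to 10.7% for *Myc*, whose corrected values were 25.87, 24.06 and 29.64 FPKM, and from 3.39% to 11.6% for *Mxi1*. Of the 9 members at 1 FPKM or more, 5 had a smaller coefficient of variation after the correction. Their median coefficient rose from 4.31% to 6.07%, while that of all genes at this level fell from 11.4% to 7.21%. The corrected log2 ratio of activators to antagonists was -2.07, -2.21 and -1.85, so that the order of the replicates stayed. The SD of the log2 ratio of *Max* to its partners fell from 0.11 to 0.03 and that of *Myc* to *Mga* from 0.42 to 0.09. The SD rose from 0.10 to 0.32 for *Myc* to *Mxi1* and from 0.03 to 0.10 for *Myc* to *Mxd1*. The correction leaves the mean over the replicates almost as it was by its construction. GC content and other differences between the libraries, such as depth, cannot be told apart with 3 replicates.

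**Figure D4:**
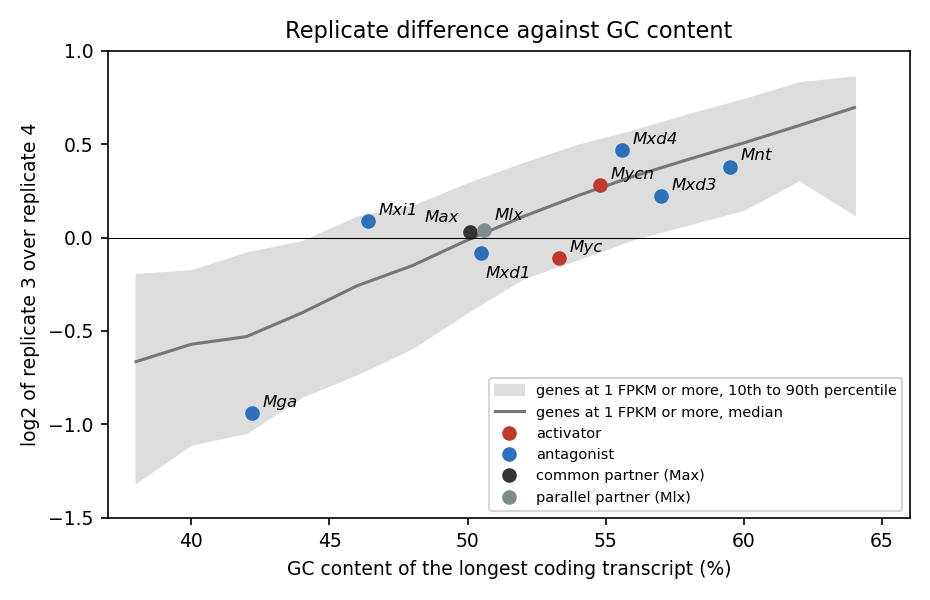
Log2 ratio of replicate 3 to replicate 4 against the GC content of the longest coding transcript for each member (points), with the median (line) and the 10th to 90th percentile (band) of genes at 1 FPKM or more. *Mga* sits low at 42.2% GC, and *Mxd4* and *Mnt* sit high. *Mga*, *Myc*, *Mxd3*, *Mnt* and *Mxd1* lie below the line.

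The proteins through which the network acts were next described from lists of known partners and targets. They are given by counts and medians, beside the 44.1% of all genes at 1 FPKM or more. All 16 cofactors of MYC were at 1 FPKM or more in each replicate, with a median of 18.2 FPKM. The highest were *Smarcb1*, a SWI/SNF subunit, at 63.5 FPKM, *Hcfc1*, a host cell factor that binds MYC, at 40.6, and *Kat2a*, a histone acetyltransferase, at 39.8. The lowest were *Bptf*, a nucleosome remodeller, at 7.82 and *Ccnt1*, the cyclin of the elongation kinase P-TEFb, at 4.48. All 16 genes for turnover of MYC protein also reached 1 FPKM, with a median of 13.6. They ranged from *Stub1*, a ubiquitin ligase, at 94.3 FPKM, *Gsk3a*, a kinase related to the one that marks MYC for degradation, at 78.7 and *Aurka*, a mitotic kinase that stabilizes N-MYC, at 42, down to *Fbxw7*, the receptor of the ligase that degrades MYC, at 1.91 and *Usp28*, a deubiquitinase that opposes it, at 1.78.

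Of the 14 SIN3 corepressor genes, 13 were at 1 FPKM or more, with a median of 14.1 FPKM. The histone chaperones *Rbbp7* and *Rbbp4* led at 43.7 and 37.8 FPKM, and the deacetylase *Hdac1* followed at 27.2. *Ing2*, a reader of histone methylation, was lowest at 1.35 FPKM. *Arid4b*, a subunit of the same complex, was below 1 FPKM in replicate 3, with 1.85, 0.88 and 3.18 FPKM at a GC content of 40.7%. Of the 12 PRC1.6 partners of *Mga*, 11 were at 1 FPKM or more, with a median of 12.3. *Ehmt2*, a histone methyltransferase, stood at 39.1 FPKM, the repressor *E2f6* at 23.5, and *Tfdp1*, which encodes the E2F dimerization partner DP1, at 20.2. *Cbx3*, a heterochromatin protein, had 4.82 FPKM, and *Pcgf6*, the subunit that defines this complex, was lowest with 0.99, 0.79 and 1.24 FPKM.

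Genes that MYC is known to induce were all above 1 FPKM, 36 of 36, and 28 were at 10 FPKM or more, against 21.7% of all genes, with a median of 24.9 FPKM. *Ldha*, lactate dehydrogenase, had 650.35, 764.89 and 571.62 FPKM, and the cell cycle genes *Ccnd2* and *Cdk4* had means of 197.8 and 123.4. *Shmt1*, a folate enzyme, at 2.28 FPKM and *Nme2*, a nucleoside diphosphate kinase, at 1.87 were the lowest. For *Nme2*, 573 exon bases are shared with another gene on the same strand, and how shared reads were counted is not given in the sources used here. Of the 8 genes that MYC is known to repress, 7 were at 1 FPKM or more, with a median of 32.3 FPKM. *Cdkn1a*, which encodes the CDK inhibitor p21, had 314.15, 381.84 and 273.09 FPKM, and *Ndrg1* and *Cdkn2b* had means of 103.6 and 68.3. *Ndrg2* at 2.45 and *Cdkn1c*, another CDK inhibitor, at 0.47 FPKM were the lowest. The medians of both lists were above the 11.2 FPKM of genes at 1 FPKM or more, while the means of single genes ranged from 1.87 to 662.3 FPKM in the first list and from 0.47 to 323 in the second. With 1 condition, no change of either list could be measured. In bulk RNA, fewer cells that express a gene and less RNA per cell cannot be told apart.

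**Figure D5:**
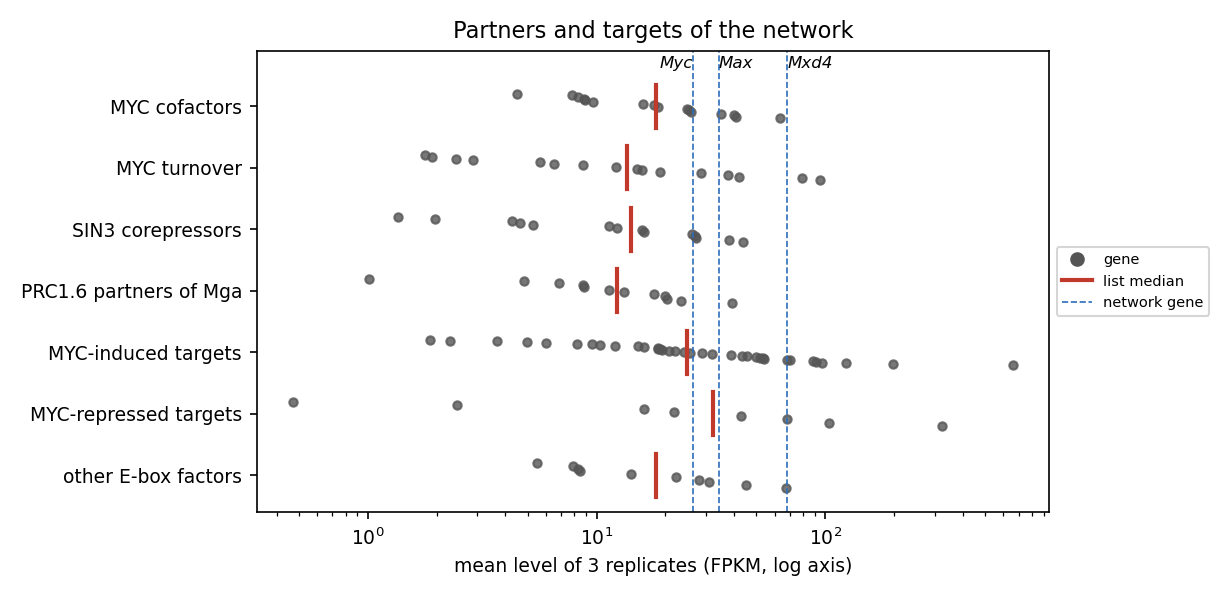
Mean level of 3 replicates in FPKM (log axis) for each gene (point) of the lists of partners and targets, with the median of the list as a bar and the levels of *Myc*, *Max* and *Mxd4* as dashed lines. The list medians lie between 12.3 and 32.3 FPKM.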

How the data were processed

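RNA was from 3 melan-a replicates, sequenced on 3 lanes each from stranded mRNA libraries. Per the paper's methods and the submitters' processing notes, the authors trimmed 10 bases, aligned reads to mm9 with STAR 2.3.0e, removed rRNA reads and counted on Ensembl release 67 with HTSeq 0.5.3p3. The deposited unit is FPKM with 2 decimals, normalized between replicates by the TMM method. How counts became FPKM is not given in the sources used here.

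Members and lists were chosen with earlier results of these data known. Named genes are the members, *Cdkn2a*, all other network genes, and the 3 highest and 2 lowest of each list of partners and targets. *Mitf*, *Kit* and *Col1a1* were named after their values were seen. 3 of the 13 listed E-box factors were not analysed here. Lengths, positions and GC content came from GENCODE M1 (NCBIM37, Ensembl 65). No symbol was found for 374 deposited genes. Library size was the value that brought low FPKM of genes with 1 transcript nearest to whole reads (31 to 69 genes). Read numbers are estimates from it and the joined exon length, and counting errors cover counting only. GC correction subtracted the median deviation of log2 FPKM in bins of 2% GC. Python 3.11.15, numpy 2.4.6 and pandas 2.3.3 were used, and the scripts were tested on simulated data.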

Additional observations from a re-analysis of the deposited data

How the results depend on the processing

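Some ratios, the order, the levels and the counts were recomputed. The ratios were activators to antagonists, *Myc* to the MXD family and to each antagonist, *Max* to its partners, and *Mlx* to *Mlxip* and *Mlxipl*. The other ratios, such as *Max* to *Myc* and *Bmyc* to *Myc*, were not recomputed. The settings were each replicate left out, the length of the longest transcript, the GC correction and the median of replicates. Further settings were pseudocounts of 1 and 0.1, genes under 1 FPKM left out and other thresholds, as each applied. None of the recomputed ratios changed its sign. Each had the same sign in all 3 replicates, so leaving 1 out or taking the median could not change it. The GC correction almost keeps the mean, so only the other settings could have changed a sign. The log2 ratio of activators to antagonists lay between -2.17 and -1.95 without each replicate and was -1.84 with *Mnt* and *Mga* left out. That of *Myc* to the MXD family lay between -1.99 and -1.74, and that of *Max* to its partners between -2.08 and -1.97, without each replicate. The log2 ratio of *Mlx* to *Mlxip* and *Mlxipl* fell to 0.34 both with the longest transcript and with a pseudocount of 1. The number of members past the threshold was 10 at 0.1 FPKM and 6 at 10 FPKM. With the longest transcript, *Mxi1* at 4.13 FPKM came before *Mxd1* at 3.93. *Myc*, at 30.74 FPKM, then came closer to *Max*, at 34.24, and was still below it. The median member level became 38.7 when each replicate was scaled to the same sum as in TPM, which changes the unit. Of the recomputed ratios of *Myc* to a single antagonist, 44 stayed within the SD between replicates and 4 moved past it. Of the levels of single genes 56 stayed and 14 moved. With 3 replicates, leaving 1 out or taking the median cannot move a mean past this SD. The GC correction almost keeps the mean by construction. Many of the values that stayed were therefore fixed in advance, and the numbers that stayed are no measure of robustness. Every member moved with the scaling to the same sum, through the change of unit. The other moves were those of *Myc*, *Mxd3*, *Mxi1* and *Mycn* with the longest transcript. There *Myc* went from 26.5 to 30.7 FPKM and *Mxd3* from 20.6 to 24.6. The depth limits *Mycl1* and *Mlxipl*. No paired analysis was possible because there is 1 group and so no groups to pair, while all ratios were taken within a replicate.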

Other observations

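Factors outside the network that bind the same E-box letters were present beside it. All 10 that were analysed were at 1 FPKM or more in each replicate, against 44.1% of all genes. Their median was 18.1 FPKM, against 11.2 over all genes that reached 1 FPKM in each replicate. *Srebf2* and *Srebf1*, regulators of sterol and fatty acid synthesis, had means of 67.6 and 44.9 FPKM, and the clock-related repressor *Bhlhe40* had 30.9. The lowest were *Usf1*, a ubiquitous E-box activator, at 7.91 FPKM and *Arntl*, which encodes BMAL1, at 5.49. *Mitf*, named here after its values were seen, had 22.27, 17.4 and 26.77 FPKM in replicates 1, 3 and 4. In each replicate *Mitf* was below *Myc*, which had 25.94, 25.66 and 27.76 FPKM.

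Both listed targets of the MLX partners were present. *Txnip*, the best known target of MondoA and an inhibitor of glucose uptake, had 105.96, 106.43 and 115.46 FPKM, and *Arrdc4*, its paralog, had 5.23, 4.79 and 5.57.

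Of 14753 genes with a matched promoter window, 1380 held CACGTG in at least 1 window. Of these, 65.1% were at 1 FPKM or more in each replicate, against 46.7% of the genes without it. This is a description across genes of the same libraries. The windows with and without CACGTG were not matched for base composition, and a link of the letters to level was not tested.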
